A study of Mus musculus with 8 samples.

Results

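The back of the iris is a pair of joined cell layers, the dilator muscle in front and the iris pigment epithelium (iris PE) behind it, and the nuclei described here are those that the deposited cell type assignment places in either layer. They were taken from the 3 libraries of untreated mice, summed per library, and compared within each library over all genes. The untreated libraries held 14365 of the 34357 nuclei of the series, and 8076 of these (56.22%) were in the layers, 4357 in the dilator muscle and 3719 in the iris PE. The dilator muscle had 403, 2080 and 1874 nuclei in untreated replicates 1 to 3, and the iris PE had 342, 1663 and 1714.

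The series consists of single nucleus RNA-seq of irises, with adjoining ciliary body, from wild-type female albino mice of 6 to 8 weeks. Nuclei of 5 to 6 irises were pooled for each library. The 3 untreated libraries came from mice given no drug. The 2 dilated libraries came from mice kept in the dark that received phenylephrine (5%), an alpha-adrenergic agonist, with cyclopentolate (1%), a muscarinic antagonist, and the 3 constricted libraries from mice kept in the light that received pilocarpine (5%), a muscarinic agonist, in hourly drops over 6.5 hours. Drug and light were changed together, so that their effects cannot be told apart.

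Both layers form from the neuroepithelium at the rim of the embryonic optic cup. The dilator is an unusual muscle, a myoepithelium whose cells keep an epithelial body beside their contractile fibres and which widens the pupil when sympathetic nerves release noradrenaline. The iris PE, in contact with the fluid of the posterior chamber, continues into the epithelium of the ciliary body, and the front layer continues into the other layer of the ciliary epithelium.

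The promoters shown first are those of pigment enzymes, whose genes were expressed in both layers, and of a muscle gene higher in the dilator muscle. *Tyr* (tyrosinase), *Tyrp1* (tyrosinase-related protein 1) and *Dct* (dopachrome tautomerase) encode the enzymes of melanin synthesis, and *Myl9* encodes the regulatory light chain of smooth muscle myosin. Each sequence is from RefSeq (GRCm38.p6), from 250 bases before the start of the gene to 50 after it, on the strand of the gene. Capitals mark the M-box, TCATGTG on either strand, a motif bound by MITF, the regulator of pigment cells, or, in *Myl9*, the CArG box, the motif bound by serum response factor.
*Tyr*, chr7:87493463-87493762, minus strand: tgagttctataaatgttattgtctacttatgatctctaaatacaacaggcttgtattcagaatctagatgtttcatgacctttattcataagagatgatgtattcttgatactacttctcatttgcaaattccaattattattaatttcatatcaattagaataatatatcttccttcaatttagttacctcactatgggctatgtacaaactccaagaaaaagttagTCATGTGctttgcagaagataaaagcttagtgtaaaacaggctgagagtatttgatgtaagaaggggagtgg
*Tyrp1*, chr4:80833963-80834262, plus strand: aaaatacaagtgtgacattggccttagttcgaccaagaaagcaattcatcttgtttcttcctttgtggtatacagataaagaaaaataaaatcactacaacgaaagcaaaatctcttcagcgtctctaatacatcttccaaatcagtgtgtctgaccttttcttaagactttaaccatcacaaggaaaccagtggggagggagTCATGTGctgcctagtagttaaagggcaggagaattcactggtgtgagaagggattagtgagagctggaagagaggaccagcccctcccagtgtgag
*Dct*, chr14:118052197-118052496, minus strand: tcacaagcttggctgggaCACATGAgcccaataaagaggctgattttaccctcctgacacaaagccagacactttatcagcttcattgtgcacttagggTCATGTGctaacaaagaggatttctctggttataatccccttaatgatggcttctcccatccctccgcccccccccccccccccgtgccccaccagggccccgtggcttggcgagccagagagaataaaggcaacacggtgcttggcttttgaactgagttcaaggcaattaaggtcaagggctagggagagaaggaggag
*Myl9*, chr2:156775214-156775513, plus strand: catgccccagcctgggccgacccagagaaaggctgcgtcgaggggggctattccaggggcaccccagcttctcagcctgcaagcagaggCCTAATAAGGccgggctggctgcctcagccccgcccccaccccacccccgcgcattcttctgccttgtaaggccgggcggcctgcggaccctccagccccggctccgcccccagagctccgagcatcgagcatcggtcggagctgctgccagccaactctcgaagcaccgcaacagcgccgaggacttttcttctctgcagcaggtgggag

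Libraries of the series held between 5189437 and 25136427 unique molecular identifiers (UMIs, 1 per captured transcript), and the summed layers of untreated libraries between 1196394 and 7105128, the least in untreated replicate 1. The median nucleus had 3410 UMIs in the dilator muscle and 3173 in the iris PE. Some cell barcodes occurred in more than 1 library: 195 barcodes and 400 nuclei in all, of which 77 nuclei were in the layers of untreated libraries. Among the 28 pairs of libraries, between 0 and 63 barcodes were shared, and the highest number was that of untreated replicate 1 with dilated replicate 1, where 59 of the 63 carried the same cell type in both. The numbers of genes called between the layers, shared by them and moved by treatment are also given without these nuclei.

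The labels were checked against lists of markers drawn up with results of these data known. Not all are particular to a layer, as *Myh11* and *Acta2* are also genes of the sphincter muscle. The summed level of 6 dilator markers ranged from 4094 to 4367 UMIs per 1000000 summed UMIs (CPM) in the dilator muscle and from 166 to 203 in the iris PE, and that of 6 iris PE markers from 133 to 161 and from 4109 to 4350. Markers of sphincter, stroma, endothelium and leukocytes stood in both layers at no more than 3.52% of their level in the cells they mark. Such shares are upper bounds, the highest untreated library of the layer over the lowest of the marked type, and are not those of any single library. Markers of the ciliary body reached 2489 to 2949 CPM in the dilator muscle, by this bound at most 18.0% of their own level. In the iris PE they were at 571 to 639, and 5 of 6 counted among the dilator genes below. Those of the ciliary body epithelium reached 537 to 695 CPM in the iris PE, at most 15.4% of their own level, against 131 to 181 in the dilator muscle. The part of either in the differences described was not tested.

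Across genes, the layers were alike but not as alike as libraries of the same layer. The squared correlation of log levels between dilator muscle and iris PE was 0.824, and 0.819 to 0.822 within single libraries, whereas it was 0.975 to 0.996 between libraries of dilator muscle and 0.967 to 0.995 between libraries of iris PE. Genes are not independent replicates, and these values describe the profiles. The profile nearest to the dilator muscle was that of sphincter 2 (0.892), a cluster of the sphincter muscle, and the profile nearest to the iris PE was that of the ciliary body epithelium (0.870). In both layers the low values within a layer were those of untreated replicate 1.

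A gene was counted as higher in a layer when its normalised level was at least 2-fold higher there in each of the 3 untreated libraries. Since the layers were told apart by clustering the same counts, these differences are a description and carry no p-value. Standard errors are those of the fitted model (edgeR), in which genes share part of the estimate of spread between libraries. Libraries can differ more than a standard error implies, as for *Matn3*, at 48.6, 18.9 and 17.6 CPM in the dilator muscle. Of 14826 genes that passed the filter on low counts, 652 (4.4%) were higher in the dilator muscle and 774 (5.22%) in the iris PE. Without the nuclei of repeated barcodes these were 657 and 761. The median log2 difference over all genes was -0.0002 (dilator muscle minus iris PE throughout), and the median absolute difference 0.25.

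**Figure D1:**
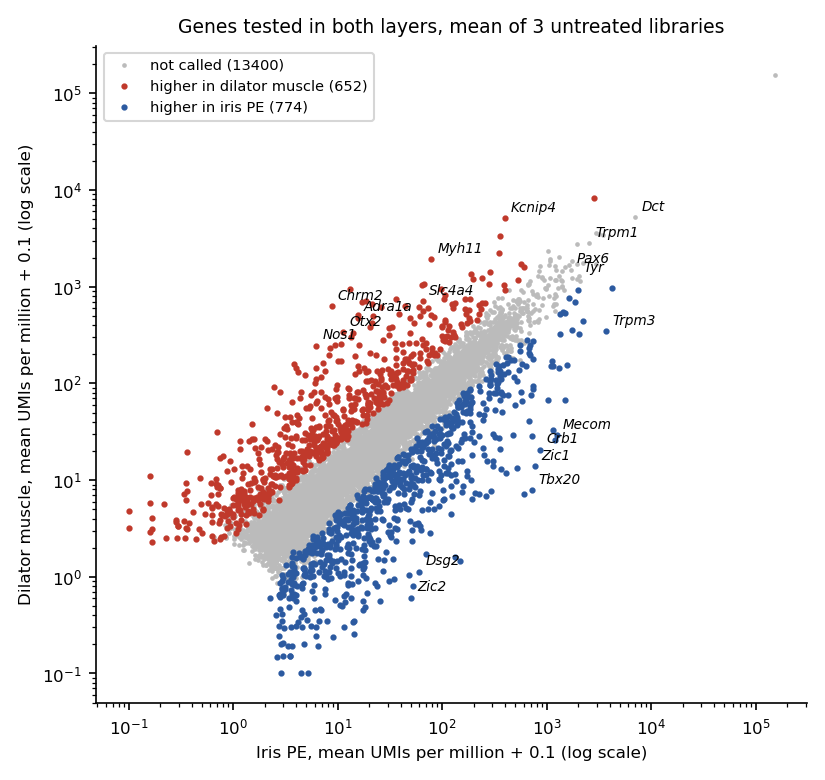
Mean level of each of 14826 genes in dilator muscle (vertical) against iris PE (horizontal), in CPM plus 0.1 on log axes, over 3 untreated libraries. The 652 genes at least 2-fold higher in dilator muscle in each library are red and the 774 higher in iris PE blue. The genes named on the plot include *Chrm2* and *Nos1* on the dilator side and *Tbx20* and *Zic2* on the iris PE side, while *Pax6*, *Trpm1* and *Dct* lie near the diagonal.

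Genes of smooth muscle contraction were higher in the dilator muscle or not called. Of the 38 members that passed the filter (42 were in the files), 19 (50%) were higher there, against 4.4% of all genes. None was higher in the iris PE, where 5.22% of all genes were, and the median log2 difference was 1.27. *Myh11*, the smooth muscle myosin heavy chain, was at 1681, 2022 and 2090 CPM in the dilator muscle of replicates 1 to 3 and at 79.4, 77.6 and 77.1 in the iris PE, a log2 difference of 4.66 ± 0.08 (SE, n = 3). *Acta2*, smooth muscle actin, was at 954, 446 and 438 CPM against 82.7, 47.9 and 47.1 (3.28 ± 0.08). Untreated replicate 1 stood higher in both layers for *Acta2*, and the groups did not overlap for either gene.

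Proteins of the thin filament and its anchors were among the genes with the largest differences. *Pdlim3*, a PDZ and LIM domain protein of actin anchors, was at 137, 129 and 126 CPM in the dilator muscle and 5.02, 2.39 and 4.80 in the iris PE (log2 difference 5.06 ± 0.15). *Lmod1*, the leiomodin of smooth muscle, was at 162, 137 and 137 against 6.69, 4.77 and 6.93 (4.52 ± 0.12). *Carmn*, a long noncoding RNA of smooth muscle, was at 889, 1200 and 1019 against 59.3, 64.1 and 67.7 (4.03 ± 0.08). In all of these, every dilator library was above every iris PE library. The contraction genes that were not called included *Tpm1*, a tropomyosin, which at 868, 701 and 719 CPM against 308, 340 and 384 (1.10 ± 0.09) missed the 2-fold limit in at least 1 library.

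The light chain gene *Myl9*, whose promoter is printed above, was at 608 CPM in the dilator muscle and 72.9 in the iris PE on average (log2 difference 2.99). The first base of its CArG box lies at -161 from the start of the gene. Of 15507 genes with a promoter sequence, 260 (1.68%) held a CArG box on either strand, and of 33 contraction genes with one, 6 (18.2%) held it: *Myl9*, *Myl6*, *Vcl*, *Ldb3*, *Dmd* and *Srf*. Of these, *Myl9* alone was among the genes called between the layers. A match describes the letters of the sequence and is not evidence of binding.

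Receptors and second messengers of autonomic nerves also separated the layers, with a median log2 difference of 0.39. Of 40 tested members, 11 (27.5%) were higher in the dilator muscle and 5 (12.5%) in the iris PE, against 4.4% and 5.22% of all genes. *Adra1a*, the alpha-1A adrenergic receptor, was at 507, 456 and 473 CPM in the dilator muscle and 17.6, 14.5 and 14.0 in the iris PE (4.99 ± 0.09). *Chrm2*, the muscarinic receptor M2, was at 675, 579 and 635 against 7.52, 8.75 and 9.59 (6.08 ± 0.10). *Nos1*, the neuronal nitric oxide synthase, was at 218, 253 and 268 against 5.02, 7.16 and 6.22 (5.29 ± 0.11). These receptors and the synthase, all in the list of dilator markers, were each above 200 CPM in every dilator library and below 20 CPM in every iris PE library.

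The low level in the other layer was compared with that in the stroma. A UMI of *Chrm2* was found in 62.2% of dilator nuclei and 2.66% of iris PE nuclei, where stroma 2, one of the stromal cell types of the iris, gave 2.66% at a median of 2425 UMIs per nucleus. At a fixed 1000 UMIs per nucleus, which left out 26 dilator, 37 iris PE and 119 stroma 2 nuclei, these shares were 35.4%, 0.951% and 1.10%. For *Zic1* the shares were 83.4% in the iris PE, 4.27% in the dilator muscle and 2.99% in stroma 2, and at 1000 UMIs 52.0%, 1.18% and 1.30%. At this fixed depth, the shares of *Chrm2* and *Zic1* in the layer with the low level did not exceed those of stroma 2. In stroma 1, the other stromal type, they were 0.938% and 1.25%. Whether such low shares are background was not tested. The shares of *Adra1a* and *Nos1* in the iris PE were 1.49% and 0.706%, against 1.30% and 0.582% in stroma 2 and 0.781% and 0.391% in stroma 1.

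Downstream of the receptors, *Plcb4*, a phospholipase C beta, was at 2946, 3560 and 3602 CPM in the dilator muscle and 313, 369 and 388 in the iris PE (3.23 ± 0.06). The soluble guanylate cyclase, the receptor of nitric oxide, and its kinase lay on the other side. *Gucy1a1*, a subunit of the cyclase, was at 13.1, 15.2 and 15.5 CPM in the dilator muscle and 138, 120 and 103 in the iris PE (-2.94 ± 0.10), and *Prkg1*, the cGMP-dependent kinase, at 170, 113 and 107 against 482, 425 and 377 (-1.79 ± 0.08). *Nos1* was therefore higher in one layer, and *Gucy1a1*, *Gucy1b1* and *Prkg1* were higher in the other. *Prkg1* was not particular to the iris PE: a UMI was found in 55.4% of iris PE and 22.3% of dilator nuclei. In stroma 1 and stroma 2 these shares were 95.4% and 83.6%. *Gnaq*, the G protein alpha subunit that couples to alpha-1 receptors, was at 269, 274 and 267 against 278, 249 and 243 (0.08 ± 0.06), with overlapping layers.

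**Figure D2:**
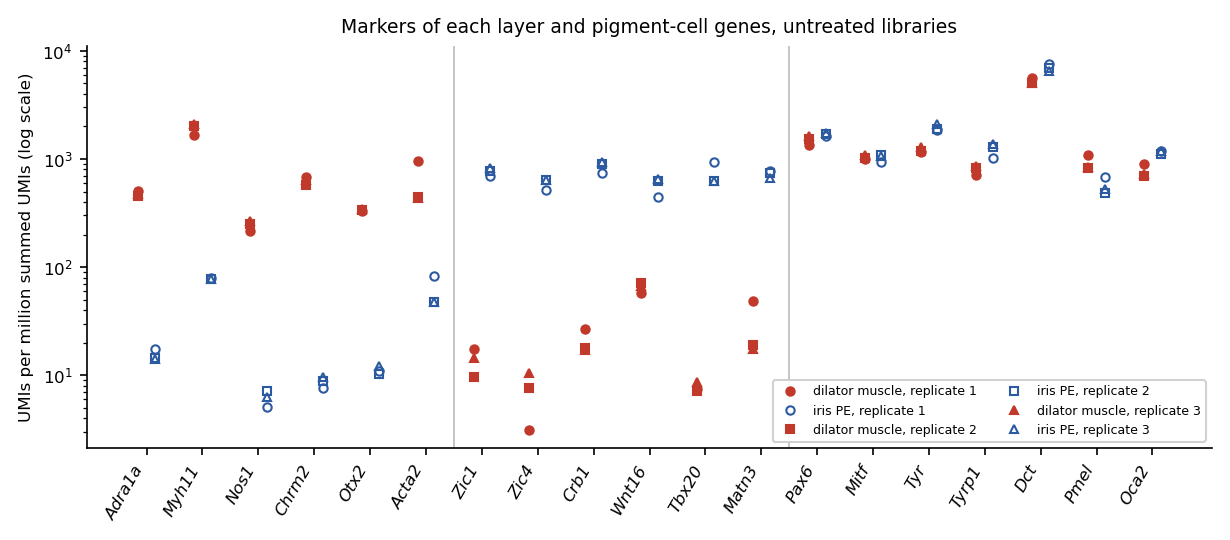
Level of marker genes of dilator muscle (left), of iris PE (middle) and of pigment-cell genes with *Pax6* (right) in each of 3 untreated libraries, in CPM on a log axis. Filled red symbols are dilator muscle and open blue symbols iris PE, with the shape giving the replicate. Markers of either layer lie apart, as for *Nos1* (218 to 268 against 5.02 to 7.16), and the genes at the right lie within 2-fold of each other on average.

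The iris PE stood apart by transcription factors. Of 41 members of the list of eye field and neuroepithelial factors that passed the filter, 15 (36.6%) were higher in the iris PE and 4 (9.76%) in the dilator muscle. Over all genes these shares were 5.22% and 4.4%, and the median log2 difference of the list was -0.52. *Tbx20*, a T-box factor, was at 7.48, 7.18 and 8.70 CPM in the dilator muscle and 933, 625 and 632 in the iris PE (-6.41 ± 0.10), the largest difference of any gene at 50 CPM or more in the higher layer. All 5 *Zic* genes, which encode zinc finger factors of the neural ectoderm, were on the same side. *Zic1* was at 17.5, 9.57 and 14.6 CPM against 701, 767 and 825 (-5.95 ± 0.12), *Zic4* at 3.12, 7.60 and 10.4 against 514, 646 and 641 (-6.26 ± 0.12), and *Zic2* at 0, 0.422 and 1.11 against 51.8, 52.5 and 46.9 (-6.19 ± 0.25).

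Several of these genes are neighbours. The starts of *Zic4* and *Zic1*, on opposite strands of chromosome 9 (mm10), are 3397 bases apart, and those of *Zic2* and *Zic5* on chromosome 14 are 9758 bases apart. Beside *Tbx20*, the start of the noncoding *Gm29824* is at 2164 bases on the opposite strand and was also higher in the iris PE. On the dilator side, the start of *Otx2os1* is at 5111 bases from that of *Otx2* and the start of *9330158H04Rik* at 2107 bases from that of *Chrm2*, both on opposite strands. Whether the values of such neighbours are independent of each other was not tested.

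*Otx2*, a homeobox factor of the eye and forebrain, was at 332, 338 and 347 CPM in the dilator muscle and 10.9, 10.3 and 12.3 in the iris PE (4.90 ± 0.10). Its relative *Otx1* was at 61.1, 70.9 and 68.7 against 111, 165 and 165 (-1.20 ± 0.08) and was not called, as it differed by less than 2-fold in replicate 1. The T-box factors *Tbx2* (1.80 ± 0.10) and *Tbx5* (1.10 ± 0.14), which pattern the upper retina, were higher in the dilator muscle, whereas *Tbx20* was higher in the iris PE. *Pax6*, the central regulator of eye formation, was at 1340, 1538 and 1639 CPM against 1625, 1696 and 1751 (-0.18 ± 0.06), and the ranges of the layers overlapped.

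Epithelial junction and polarity genes lay toward the iris PE (median log2 difference -0.71). Of 42 tested members, 14 (33.3%) were higher there and 3 (7.14%) in the dilator muscle, against 5.22% and 4.4% of all genes. *Crb1*, which sets the apical membrane, was at 26.8, 17.7 and 17.2 CPM in the dilator muscle and 740, 897 and 937 in the iris PE (-5.56 ± 0.12). The desmosomal cadherin *Dsg2* was at 0.623, 0.563 and 1.90 against 41.0, 69.8 and 69.1 (-5.85 ± 0.21). *Cdh18*, a classical cadherin, was at 82.3, 59.7 and 60.1 against 1469, 1528 and 1508 (-4.56 ± 0.09). The tight junction genes *Cldn19* (3.24 against 60.6 CPM on average), *Cldn2* (0.475 against 9.38), *Tjp1* (80.4 against 365) and *Ocln* (1.36 against 9.78) followed the same direction.

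Cadherins were also present on the muscle side. N-cadherin (*Cdh2*) was at 151, 123 and 132 CPM in the dilator muscle and 25.9, 15.9 and 16.7 in the iris PE (2.89 ± 0.10), and P-cadherin (*Cdh3*) at 105, 62.2 and 67.9 against 19.2, 20.5 and 22.9 (1.69 ± 0.12). Other epithelial genes were at like levels in both layers: *Gja1*, the gap junction protein connexin 43, was at 1082, 805 and 916 against 1638, 1298 and 1409 (-0.65 ± 0.05), and the scaffold gene *Magi2* at 3592, 3562 and 3558 against 2942, 3029 and 2970 (0.25 ± 0.05).

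Channels of calcium and potassium were divided. Of 50 tested members, 7 (14%) were higher in the dilator muscle and 13 (26%) in the iris PE, against 4.4% and 5.22% of all genes. *Kcnip4*, a subunit of A-type potassium channels, was at 5715, 4856 and 4744 CPM in the dilator muscle and 469, 398 and 322 in the iris PE (3.69 ± 0.07). *Kcnq5* (2.95 ± 0.08) and *Kcnb2* (2.32 ± 0.06), both voltage-gated potassium channels, had the same direction. *Trpm3*, a cation channel, was at 434, 336 and 267 against 4143, 3433 and 3496 (-3.46 ± 0.08), and *Ano4*, of the anoctamin family, at 16.8, 11.0 and 10.8 against 318, 406 and 363 (-5.02 ± 0.12). *Trpm1*, the melastatin channel of pigment cells and retinal bipolar cells, was at 3048, 2789 and 2639 against 2960, 2378 and 2218 (0.17 ± 0.05), with overlapping ranges.

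Transporters were likewise divided (7 and 8 of 43, or 16.3% and 18.6%, against 4.4% and 5.22% of all genes). The bicarbonate cotransporter *Slc4a4*, itself among the ciliary body markers, was at 726, 730 and 685 CPM in the dilator muscle and 71.0, 63.3 and 60.4 in the iris PE (3.47 ± 0.07). *Best2*, a bestrophin of the ciliary epithelium, was at 7.48, 3.80 and 3.64 against 101, 74.4 and 71.8 (-4.20 ± 0.14). *Slc2a1*, the glucose transporter GLUT1, was at 302, 367 and 364 against 396, 662 and 632 (-0.73 ± 0.08) and was not called. Of 16 retinoid genes tested, 5 (31.25%, against 5.22% of all genes) were higher in the iris PE: *Rdh5* and *Rdh10* (retinol dehydrogenases), *Aldh1a1*, *Crabp2* and *Rxrg*. The 1 higher in the dilator muscle (6.25%, against 4.4%) was *Stra6*, the receptor of retinol-binding protein, which had 19.3 against 2.61 CPM on average (3.01).

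Genes best known from neurons were frequent in both directions. Of 72 tested members, 16 (22.2%) were higher in the dilator muscle and 11 (15.3%) in the iris PE, against 4.4% and 5.22% of all genes. *Reln*, a secreted matrix protein of neuronal migration, was at 705, 738 and 675 CPM in the dilator muscle and 25.1, 14.1 and 16.3 in the iris PE (5.40 ± 0.11). *Sv2b*, a protein of synaptic vesicles, was at 581, 643 and 630 against 19.2, 32.4 and 25.6 (4.50 ± 0.09), and *Cadps*, a factor of dense-core vesicle release, at 297, 282 and 324 against 20.9, 8.95 and 10.3 (4.77 ± 0.13). On the iris PE side were adhesion genes, with *Cntn1* (contactin 1) at 43.0, 40.7 and 38.9 against 586, 755 and 674 (-4.11 ± 0.09) and *Cadm2* at 193, 127 and 146 against 1639, 1439 and 1575 (-3.37 ± 0.08). *Gabra5*, a subunit of GABA-A receptors, was at 200.1, 154 and 124 against 4.18, 3.18 and 3.73 (5.33 ± 0.13).

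Axon guidance genes showed both directions in 13 of 38 tested members. Toward the dilator muscle were 6 (15.8%) and toward the iris PE 7 (18.4%), against 4.4% and 5.22% of all genes. *Robo1*, a Slit receptor, was at 1684, 1670 and 1750 CPM in the dilator muscle and 578, 544 and 578 in the iris PE (1.58 ± 0.06), and its ligand gene *Slit2* was at 430, 435 and 460 against 738, 828 and 864 (-0.89 ± 0.06), short of 2-fold. *Epha5*, an ephrin receptor, was at 174, 125 and 136 against 1155, 1334 and 1421 (-3.24 ± 0.11), whereas *Epha3*, a relative, was at 135, 137 and 152 against 52.7, 36.8 and 36.2 (1.87 ± 0.10).

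Among signalling genes, 15 of 78 tested members (19.2%) were higher in the dilator muscle and 16 (20.5%) in the iris PE, against 4.4% and 5.22% of all genes. Members of one pathway often lay in different layers. For Wnt, *Wif1*, a secreted inhibitor, was at 53.0, 60.2 and 52.8 CPM in the dilator muscle and 0.836, 2.39 and 2.84 in the iris PE (4.49 ± 0.18), and *Rspo2*, a secreted amplifier, at 514, 490 and 522 against 14.2, 14.3 and 17.9 (4.98 ± 0.09), while the ligand gene *Wnt16* was at 58.0, 71.8 and 66.6 against 449, 625 and 647 (-3.17 ± 0.08) and the receptor gene *Ror1* at 25.6, 20.7 and 16.6 against 388, 360 and 329 (-4.17 ± 0.09). For bone morphogenetic proteins, the receptor *Bmpr1b* (-5.13 ± 0.09) and the antagonists *Grem1* (-4.33 ± 0.16) and *Chrdl1* (-3.97 ± 0.12) were higher in the iris PE, as was the ligand *Bmp4* (153 against 383 CPM), whereas *Bmp5* was higher in the dilator muscle (12.9 against 1.35). *Bdnf*, a neurotrophin, and its receptor *Ntrk2* were higher in the iris PE (0.800 against 15.6 and 4.72 against 25.1 CPM).

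Matrix genes had 8 of 52 tested members (15.4%) higher in the dilator muscle and 10 (19.2%) in the iris PE, against 4.4% and 5.22% of all genes. Fibronectin (*Fn1*) was at 49.9, 39.8 and 44.5 CPM in the dilator muscle and 4.18, 1.79 and 3.20 in the iris PE (3.97 ± 0.18), and the laminin chains *Lama2* (1.65) and *Lama3* (1.95) were on its side. *Matn3* (matrilin 3) was at 48.6, 18.9 and 17.6 against 772, 745 and 669 (-4.99 ± 0.16), and *Col23a1*, a transmembrane collagen, at 64.2, 64.9 and 71.0 against 1101, 987 and 1015 (-3.94 ± 0.07). The basement membrane collagen genes *Col4a5* (0.31 ± 0.06) and *Col4a6* (0.34 ± 0.06) differed little.

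**Figure D3:**
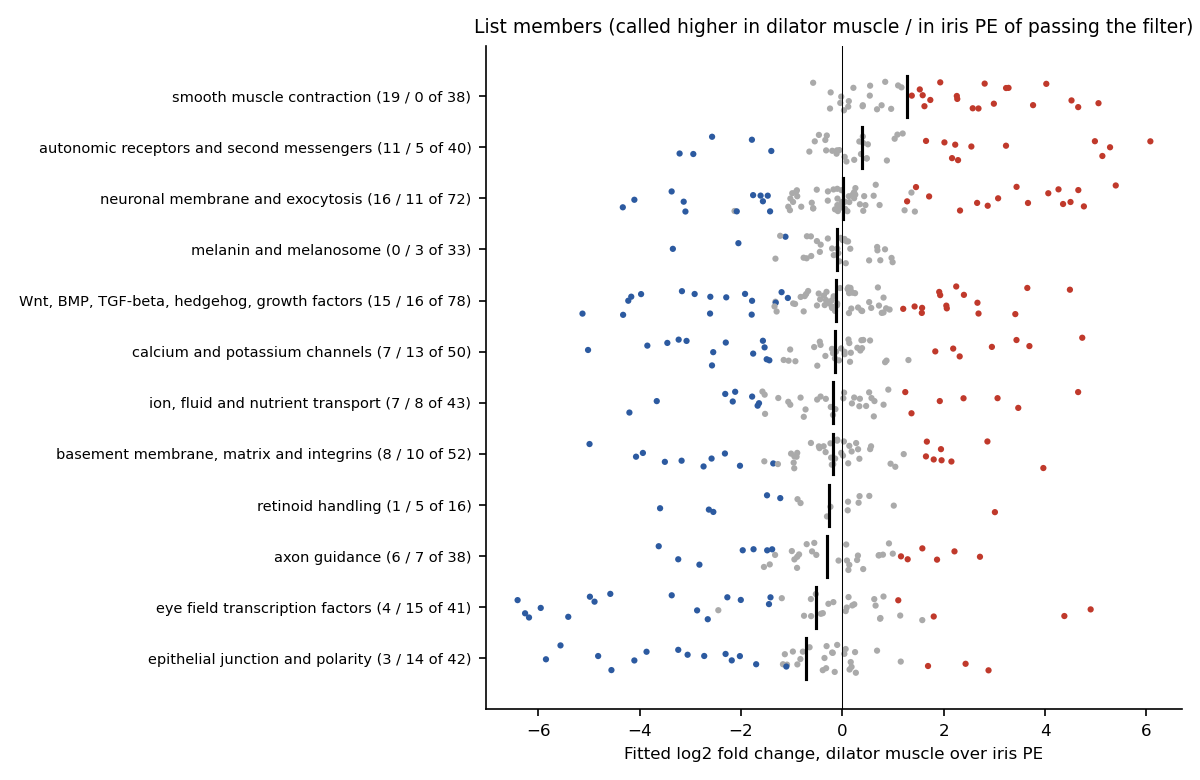
Fitted log2 difference (dilator muscle minus iris PE, horizontal) of each list member that passed the filter, 1 row per list, in 3 untreated libraries. Red points are called higher in dilator muscle, blue points higher in iris PE and grey points neither, and the black bar is the list's median. The contraction list has 19 red and no blue points, while the transcription factor list has 4 red and 15 blue.

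Pigment-cell genes were at levels of the same order in both layers. Of 33 tested members of the melanin and melanosome list, none was higher in the dilator muscle, 3 (9.09%) were higher in the iris PE and 30 were not called. Over all genes 13400 of 14826 were not called, a share near that of the list. The median log2 difference of the list was -0.10, but its median absolute difference was 0.53, against 0.25 over all genes. *Mitf*, the regulator of pigment cells, was at 1002, 1027 and 1086 CPM in the dilator muscle and 931, 1087 and 1058 in the iris PE (0.01 ± 0.06). *Tyr* was at 1170, 1189 and 1284 against 1854, 1915 and 2107 (-0.70 ± 0.05), *Tyrp1* at 718, 833 and 868 against 1025, 1297 and 1376 (-0.62 ± 0.06), and *Dct* at 5591, 5031 and 5038 against 7603, 7024 and 6554 (-0.44 ± 0.05). For each of the enzymes, every dilator library was below every iris PE library, by less than 2-fold on average.

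The direction was not the same for all pigment genes. *Pmel*, which forms the fibrils of the melanosome, was at 1082, 823 and 836 CPM in the dilator muscle and 679, 488 and 523 in the iris PE (0.69 ± 0.06), and *Oca2*, a melanosomal channel, at 890, 699 and 728 against 1183, 1114 and 1188 (-0.61 ± 0.07). The called members were *Kit*, a receptor of melanoblasts, at 5.61, 4.08 and 5.22 against 44.3, 52.7 and 44.2 (-3.35 ± 0.16), *Rab38*, a GTPase of melanosome traffic, at 166, 172 and 204 against 676, 742 and 808 (-2.05 ± 0.06), and *Hps3* at 16.8, 16.6 and 18.0 against 37.6, 37.0 and 37.5 (-1.12 ± 0.11). A UMI of *Dct* was found in 99.7% of dilator and 99.9% of iris PE nuclei, and a UMI of *Tyr* in 85.8% and 95.9%, against 55.3% and 10.6% of stroma 2 nuclei.

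In the promoters printed above, the first base of the M-box lies at -22 in *Tyr*, at -47 in *Tyrp1* and at -232 and -151 in *Dct*. The motif was found in 491 of 15507 genes (3.17%) and in 6 of 28 genes of the melanin list with a promoter sequence (21.4%), *Tyr*, *Tyrp1*, *Dct*, *Slc24a5*, *Myo7a* and *Hps1*. None of these was called between the layers. *Slc24a5*, a cation exchanger of the melanosome, had 637 against 317 CPM on average.

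A set of genes was shared by the layers and lower in both stromal types, endothelial cells and leukocytes. Such genes had at least 20 CPM in both layers, within 2-fold of each other on average, and at least 4-fold above each of those cell types. Sphincter and ciliary body types were not part of the rule, so that the genes need not be low there. There were 24 such genes. *Pax6* was at 1506 and 1691 CPM in the layers and at no more than 319 in the cells outside, and a UMI was found in 97.9% of dilator, 96.8% of iris PE and 14.5% of stroma 2 nuclei. *Folh1*, a folate hydrolase, was at 93.5, 67.8 and 77.5 CPM in the dilator muscle and 110, 65.8 and 75.9 in the iris PE (-0.03 ± 0.08), and at no more than 3.83 outside. *Gsta3*, a glutathione transferase, was at 171, 187 and 178 against 153, 168 and 178 (0.08 ± 0.07), and at no more than 27.8 outside. Values of both genes overlapped between the layers.

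The desmosomal plaque gene *Pkp2* (106, 118 and 121 CPM in the dilator muscle, 52.7, 76.4 and 76.0 in the iris PE) and *Emilin3*, of the elastin-interface family (117, 139 and 179 against 33.4, 85.5 and 99.1), were also in the set. *Opn4*, the photopigment melanopsin, was a further member, with 21.8, 27.0 and 23.7 CPM in the dilator muscle and 26.7, 31.6 and 31.3 in the iris PE; it is named after its values were seen. The pigment enzymes were not in it, since stroma 1, the other stromal cell type, had them at similar or higher levels, with 20924 CPM for *Dct*. The number rose to 64 without doublets and to 37 without the nuclei whose barcode was in another library, with 23 of the 24 genes kept in each case. With untreated replicate 2 left out there were 38 genes, with 18 of the 24 kept, and without replicate 1 there were 22, with 10 kept.

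The other cell types placed these genes further. Of the 652 dilator genes, 486 (74.5%) had at least 50% of their dilator level in sphincter 1 or 2, 198 (30.4%) in the ciliary body and 93 (14.3%) in the ciliary body epithelium. Of the 774 iris PE genes, 594 (76.7%) reached that level in the ciliary body epithelium and 251 (32.4%) in a sphincter type. At least 50% of the level was also reached in a stromal type, endothelial cells or leukocytes by 369 dilator genes (56.6%) and 482 iris PE genes (62.3%). Shares over all genes were not counted, so that these counts do not set the called genes apart from other genes. The counts also differ in rule, as those of sphincter and outside cells take the highest of several types and the ciliary ones a single type. Few genes marked a layer against all others: 51 dilator genes (7.82%) and 53 iris PE genes (6.85%) were at least 2-fold above every other type. *Nos1*, at 246 CPM in the dilator muscle, was at 34.4 or less in the other 9 types. *Zic1* was at 764 CPM in the iris PE and 705 in the ciliary body epithelium, *Myh11* at 1931 in the dilator muscle and 2940 in sphincter 1, and *Slc4a4* at 714 in the dilator muscle and 6338 in the ciliary body. *Crb1*, at 858 CPM in the iris PE, was at 130 in the ciliary body epithelium.

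**Figure D4:**
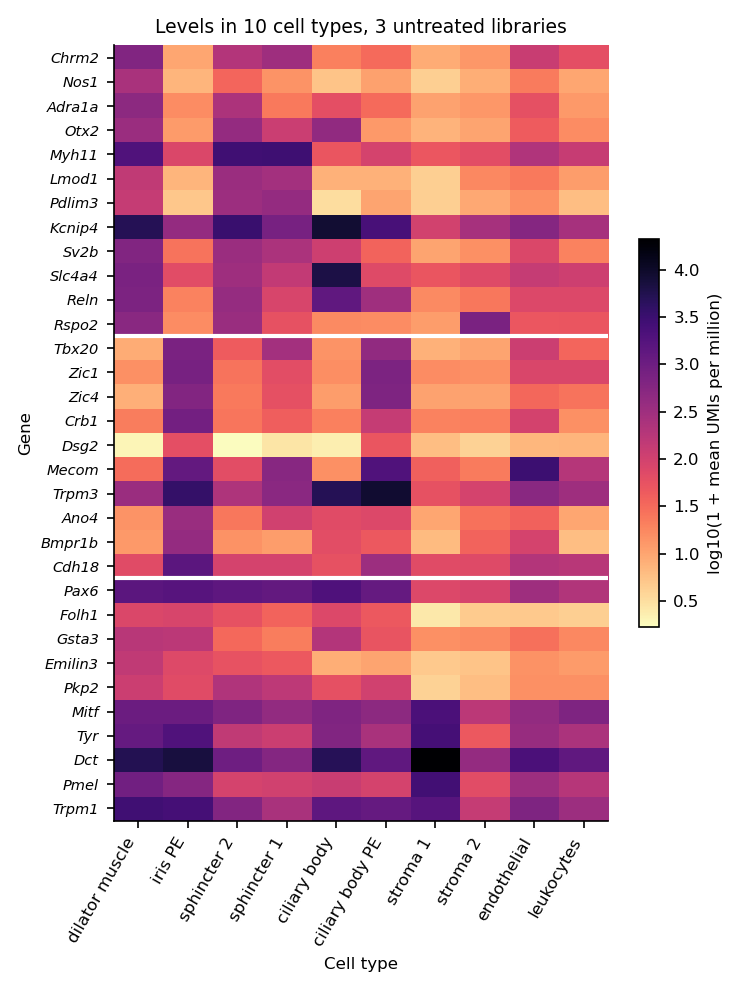
Mean level in 10 cell types over 3 untreated libraries, as log10 of 1 plus CPM (colour), for 12 dilator genes (top), 10 iris PE genes (middle) and 10 genes at like levels in both (bottom). *Zic1* and *Zic4* are dark in iris PE and ciliary body PE (the ciliary body epithelium), *Myh11* in dilator and both sphincter types, and *Dct* is darkest in stroma 1 (20924 CPM).

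The called genes were then followed in the libraries that had not been used to call them. The nuclei of those libraries were also divided into layers by clustering their counts, so that the shares are a description and no independent test. Shares over all genes were not counted. In the constricted libraries, 516 of the 652 dilator genes (79.1%) and 577 of the 774 iris PE genes (74.5%) were again at least 2-fold higher in the same layer in each of the 3 libraries. In the dilated libraries these were 466 (71.5%) and 585 (75.6%) in both libraries. In all 8 libraries, 417 and 482 genes were 2-fold higher, and 606 (92.9%) and 710 (91.7%) had the same direction. In both dilated libraries 6 dilator genes and 16 iris PE genes had the opposite direction, and in the constricted libraries 1 and 0.

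The number of dilator nuclei per iris PE nucleus was 1.17 ± 0.08 (SD, n = 3) in untreated, 1.40 ± 0.06 (n = 2) in dilated and 1.54 ± 0.10 (n = 3) in constricted libraries. Neither difference from untreated could pass a threshold of 0.05 at these numbers, with two-sided exact permutation p = 0.2 for dilated and 0.1 for constricted libraries, in each case the smallest the design allows. The highest untreated value, 1.25, was below the lowest of the treated ones, 1.36.

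Whether treatment changed one layer more than the other was tested as an interaction, the change of the layer difference from untreated to treated libraries, in edgeR's quasi-likelihood test with a term for each library and Benjamini-Hochberg adjustment over 16283 genes. Both treatments were compared with the same untreated libraries. With dilation the layer difference of 691 genes (4.24%) moved toward the dilator muscle, that is, rose there or fell in the iris PE, and that of 743 genes (4.56%) toward the iris PE (adjusted p under 0.05 and an absolute log2 change over 0.6, values below being log2 change ± SE). Without the nuclei of repeated barcodes these were 685 and 752, DESeq2 gave 393 and 364, and leaving out 1 library in turn gave 510 to 714 and 531 to 723. With 1 dilated library left out, the remaining one is assumed to vary like the libraries of the other conditions.

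With constriction 3 genes (0.0184%) moved toward the dilator muscle and 2 (0.0123%) toward the iris PE, while 925 genes had an unadjusted p under 0.05. *Ptprz1*, a receptor tyrosine phosphatase, was at 282, 169 and 187 CPM in the untreated dilator muscle and 353, 930 and 551 in the constricted one, and at 53.5, 33.4 and 38.0 and then 37.1, 42.6 and 47.1 in the iris PE, a log2 change of the difference of 1.34 ± 0.18 (edgeR adjusted p = 0.00256). *Synpo2*, an actin-binding protein of muscle, went from 552, 461 and 405 CPM to 748, 906 and 514 in the dilator muscle and from 55.2, 46.1 and 46.2 to 51.9, 46.7 and 33.3 in the iris PE (0.74 ± 0.13, edgeR adjusted p = 0.0319). *Flna*, the actin cross-linker filamin A, went from 417, 274 and 239 to 479, 593 and 572 in the dilator muscle (0.65 ± 0.12, edgeR adjusted p = 0.0381). DESeq2 also gave 3 and 2 genes, and without the nuclei of repeated barcodes there were 4 and 3, but no gene was called without untreated replicate 2 or without untreated replicate 3, and 15 and 10 were without constricted replicate 1.

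Contraction genes moved with dilation in 9 of 41 tested members, all toward the dilator muscle, where 4.24% of all genes did: *Tagln*, *Cald1*, *Tpm1*, *Tpm2*, *Vcl*, *Actn1*, *Flna*, *Csrp1* and *Svil*. *Vcl* (vinculin, of focal adhesions) was at 232, 197 and 207 CPM in the untreated and 459 and 545 in the dilated dilator muscle, and at 209, 144 and 144 and then 193 and 180 in the iris PE (1.12 ± 0.13, edgeR adjusted p = 2.01e-06). *Cald1*, caldesmon, was at 595, 599 and 611 CPM and then 1055 and 1113 in the dilator muscle (0.83 ± 0.14, edgeR adjusted p = 0.000312). For both genes the dilated dilator libraries were above all untreated ones. Not every called member rose in the dilator muscle. *Tpm1* was at 868, 701 and 719 CPM there and then 624 and 904, and went from 308, 340 and 384 to 211 and 224 in the iris PE. *Myh11* was lower in both layers of dilated libraries, at 1140 and 1246 CPM in the dilator muscle and 54.9 and 46.6 in the iris PE. *Myh11* (-0.02 ± 0.18) and *Acta2* (0.47 ± 0.18) did not pass, nor did any member of the dilator or iris PE marker lists, among them *Chrm2* (-0.67 ± 0.25, edgeR adjusted p = 0.0818) and *Adra1a* (-0.67 ± 0.24, edgeR adjusted p = 0.0671). Of the 6 markers of the ciliary body epithelium 3, *Fbln1*, *Podxl2* and *Gldc*, moved toward the iris PE with dilation, and the summed level of the 6 in the iris PE was 962 and 825 CPM in dilated against 537 to 695 in untreated libraries. No tested marker of the other cell types passed, and the part of these cells in the changes with dilation was not tested.

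Pigment-cell genes, at levels of the same order in untreated libraries, were changed unequally in 5 of 33 tested members. Of these, 1 moved toward the dilator muscle and 4 toward the iris PE, where 4.24% and 4.56% of all genes did. *Tyr* was at 1170, 1189 and 1284 CPM in the untreated and 299 and 253 in the dilated dilator muscle, and at 1854, 1915 and 2107 and then 837 and 889 in the iris PE, so that both layers were lower in dilated libraries and the dilator muscle more so (-0.84 ± 0.11, edgeR adjusted p = 6.96e-06). *Gpnmb*, a melanosomal glycoprotein, was at 1843, 1944 and 2052 and then 7086 and 7431 CPM in the dilator muscle, against 1125, 1010 and 1113 and then 1485 and 1532 in the iris PE (1.53 ± 0.10, edgeR adjusted p = 5.79e-10). *Gpr143*, *Mlph* and *Myo7a*, of melanosome formation and transport, moved toward the iris PE. *Mitf* (0.03 ± 0.10), *Dct* (0.16 ± 0.11) and *Tyrp1* (-0.17 ± 0.11) did not pass.

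Some genes had the opposite direction in both dilated libraries. The interaction tests the change of the difference and not its reversal, and for *Aqp1* and *Kcnd3* the dilated layers lay close together. *Aqp1*, the water channel aquaporin 1, was at 27.4, 24.1 and 28.6 CPM in the untreated dilator muscle and 74.4, 90.9 and 94.5 in the iris PE, but at 181 and 183 against 159 and 157 in the dilated libraries (2.07 ± 0.13, edgeR adjusted p = 2.72e-10). *Col4a2*, a chain of collagen IV, was at 31.2, 14.5 and 20.9 against 75.2, 46.5 and 44.6 in untreated and 153 and 90.4 against 61.5 and 23.3 in dilated libraries (2.98 ± 0.22, edgeR adjusted p = 1.59e-09). Its partner *Col4a1* and the potassium channel gene *Kcnd3* had the same pattern on average, with 5.03 against 23.0 and 56.4 against 17.9 CPM for *Col4a1*, and 24.0 against 62.7 and 89.8 against 75.8 for *Kcnd3*. The immediate early genes *Egr1* (5.79 against 27.4 in untreated, 170 against 75.7 in dilated libraries) and *Nr4a1* (11.3 against 36.1, then 225 against 47.6) were higher in the dilator muscle of both dilated libraries.

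*Pde10a*, a phosphodiesterase of cyclic nucleotides, rose in both layers, from 27.4, 17.6 and 15.8 CPM to 1305 and 1338 in the dilator muscle and from 18.4, 14.1 and 15.3 to 383 and 296 in the iris PE, and more in the dilator muscle (1.83 ± 0.20, edgeR adjusted p = 4.57e-07). *Kcnn2*, a calcium-activated potassium channel, went in opposite directions, from 61.1, 52.4 and 46.3 CPM to 18.8 and 24.0 in the dilator muscle and from 103, 54.1 and 43.9 to 212 and 384 in the iris PE (-3.46 ± 0.25, edgeR adjusted p = 1.59e-09). *Gria4*, a glutamate receptor subunit, was at 207, 215 and 269 and then 63.8 and 76.9 in the dilator muscle and at 270, 316 and 380 and then 328 and 384 in the iris PE (-1.74 ± 0.11, edgeR adjusted p = 2.54e-10). In *Gria4* the iris PE of dilated libraries lay near the range of the untreated ones, while the dilator muscle lay below it.

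Over the lists, the counts moved toward the dilator muscle and toward the iris PE were 8 and 2 of 43 for autonomic genes, 8 and 8 of 52 for channels, 4 and 3 of 43 for transcription factors, 4 and 3 of 46 for junctions, 7 and 4 of 44 for transporters, 2 and 0 of 20 for retinoid genes, 10 and 7 of 57 for matrix, 6 and 13 of 75 for neuronal genes, 2 and 4 of 38 for axon guidance and 8 and 8 of 85 for signalling genes. Over all genes tested these shares were the 4.24% and 4.56% given above. With constriction, *Synpo2* and *Flna* of the contraction list were the only members of these lists that passed.

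**Figure D5:**
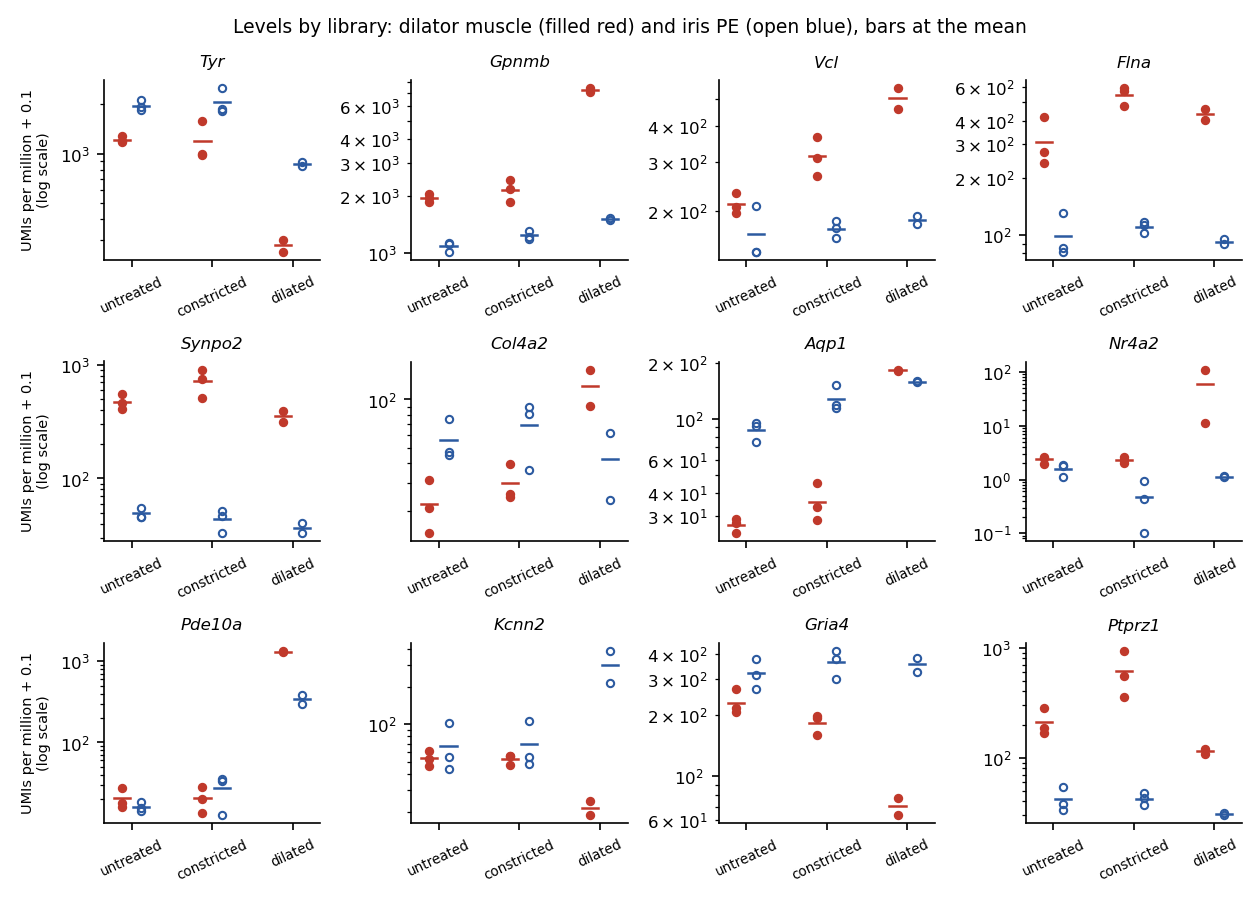
Level of 12 genes in each of 8 libraries by condition, in CPM plus 0.1 on log axes that differ between panels, with filled red points for dilator muscle, open blue points for iris PE and bars at the mean. *Gpnmb* and *Vcl* are higher in the dilator muscle of dilated libraries, *Tyr* is lower in both layers, *Kcnn2* goes down in the dilator muscle and up in the iris PE, and *Ptprz1* is highest in the constricted dilator muscle (353, 930 and 551).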

How the data were processed

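The authors aligned reads of 10x Genomics v3 libraries to an mm10 pre-mRNA index with Cell Ranger 3.1.0, kept nuclei by gene number (500 to 6000) and mitochondrial share (up to 1%), clustered them with Seurat and deposited UMI counts of each gene in each nucleus, as whole numbers, with a table of metadata with percent mitochondrial transcripts and 1 of 10 cell types per nucleus. UMI totals matched the metadata in 31650 of 34357 nuclei and differed by at most 13 UMIs in the others. The study processed the irises in 5 batches and 2 sequencing runs, whose libraries are not given in the sources used here.

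Counts were summed per library and layer (6 sums for the untreated comparison, 16 for the interactions), filtered by filterByExpr, normalised by TMM and fitted in edgeR 4.0.16 (R 4.3.3) with a term for each library, since both layers of a library come from the same animals. Calls between layers used levels with a prior count of 0.5. Interactions used the quasi-likelihood test over all 8 libraries, with 5 residual degrees of freedom. Levels are counts per 1000000 summed UMIs, and squared correlations are of log values per 10000 UMIs. Scrublet marked 359 nuclei (1.04%) as doublets, 19 of dilator muscle and 9 of iris PE in untreated libraries, which were kept. Scripts were tested on simulated data. Alternatives were DESeq2 1.42.0, other filters, scalings and folds, and fits without single libraries, doublets or repeated barcodes, the last chosen after seeing the data. Gene positions are of GENCODE vM21 (22498 of 22873 genes matched).

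The members and the gene lists were chosen with earlier results of these data known. The genes named were the 12 with the largest difference in each direction at 50 CPM or more, up to 4 called members of each list and direction at 20 CPM or more and 2 that were not called, the markers, the 12 shared genes most above the cells outside, 6 genes per interaction and direction, and a fixed set of pigment and eye genes. A few genes that these rules name are not reported here. Other genes were named after their values were seen.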

Additional observations from a re-analysis of the deposited data

Results flagged for a closer look

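Differences between the responses of the layers were flagged where the edgeR interaction passed. No group held 4 or more libraries, so that no single library was tested as standing apart. Values are log2 changes of the difference, dilator muscle minus iris PE, with SE, and each adjusted p is from edgeR's quasi-likelihood test. Fitted values of genes at 0 in a group, such as *Lrrc66* and *5530401A14Rik*, depend on the prior count.

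With dilation, genes that moved toward the dilator muscle were *Gm21954* (5.41 ± 1.34), *Lrrc66* (5.00 ± 1.49), *Nr4a2* (4.74 ± 0.77), *Myc* (4.52 ± 0.90) and *Gm15418* (4.47 ± 1.07). Most were near the floor: *Gm21954*, *Lrrc66*, *Myc* and *Gm15418* averaged 5.61, 0.396, 3.53 and 3.13 CPM in the dilated dilator muscle. Of 12 settings, *Gm21954* and *Gm15418* kept their call in 9, *Lrrc66* in 5, *Myc* in 11 and *Nr4a2* in 12. *Nr4a2* was at 1.87, 2.53 and 2.37 CPM in the untreated and 11.1 and 110 in the dilated dilator muscle, so that the dilated libraries differed widely from each other. Further genes with this direction were *Grem1* (3.07), *Crabp2* (2.99), *Col4a2* (2.98), *Ntn4* (2.56), *Aqp1* (2.07), *Id3* (1.99), *Pde10a* (1.83), *Gpnmb* (1.53), *Cacna2d3* (1.33), *Vcl* (1.12), *Magi3* (0.83), *Unc13b* (0.82) and *Flna* (0.73).

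Toward the iris PE moved *Acsm5* (-4.55 ± 1.31), *5530401A14Rik* (-4.23 ± 1.36, 0 in both dilated dilator libraries), *Arsj* (-4.13 ± 0.85), *Ccdc152* (-4.12 ± 1.30), *Gm49012* (-3.73 ± 1.12) and *Efcc1* (-3.63 ± 0.48). *Efcc1* was at 10.6, 15.9 and 12.7 CPM in the untreated and 1.58 and 1.80 in the dilated dilator muscle. The others were low, with untreated dilator means of 7.04 CPM for *Acsm5*, 3.33 for *Arsj* and 0.835 for *Ccdc152*. Of 12 settings, *Acsm5* kept its call in 8, *5530401A14Rik* in 6, *Arsj* in 11, *Gm49012* in 9 and *Efcc1* in 12, and *Ccdc152* did in 5 of 9. *Kcnn2* (-3.46), *Car14* (-1.94), *Gria4* (-1.74), *Robo2* (-1.56), *Sox11* (-1.53), *Wnt5b* (-1.48), *Cngb3* (-1.23), *Lama2* (-1.04), *Nectin1* (-0.95), *9630028H03Rik* (-0.87), *Plcb1* (-0.85) and *Tyr* (-0.84) had the same direction. *Robo2* was at 685, 541 and 541 CPM in the untreated and 168 and 149 in the dilated dilator muscle, and *Car14*, a carbonic anhydrase, at 125, 126 and 121 and then 27.3 and 35.7.

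With constriction, *Ptprz1* (1.34), *Synpo2* (0.74) and *Flna* (0.65) moved toward the dilator muscle, and *9630028H03Rik* (-1.10 ± 0.19) and *Cngb3* (-1.08 ± 0.19), a subunit of cyclic nucleotide-gated channels, toward the iris PE (adjusted p = 0.0319 for both). *Cngb3* was at 133, 105 and 84.6 CPM in the untreated and 81.9, 69.6 and 53.1 in the constricted dilator muscle, and *9630028H03Rik* at 24.2, 21.7 and 19.7 and then 32.2, 59.0 and 35.9 in the iris PE.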

How the results depend on the processing

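The calls between layers moved with their thresholds. The genes higher in the dilator muscle and in the iris PE numbered 271 and 304 at 50 CPM or more, 1124 and 1276 at 1.5-fold, 248 and 318 at 4-fold, and 372 and 484 when all 8 libraries were required, with scaling and the filter on low counts redone over them (417 and 482 above are counts among the genes called in untreated libraries, without that filter). Other settings stayed within 1.5 times, from 454 and 554 with nuclei thinned to 1000 UMIs to 934 and 1153 with edgeR's adjusted p and a fitted 2-fold change as the rule, and leaving out 1 untreated library gave 702 to 844 and 786 to 1086, as fewer libraries had to pass. Without TMM scaling there were 660 and 766, and with DESeq2's size factors 649 and 776. Among the genes followed under all settings, the fitted direction in the dilated libraries reversed for *Aqp1* (0.32), *Robo2* (-0.25) and *Efcc1* (-1.23), and the cause was not tested. The shared genes numbered 179 at 2-fold over the cells outside, 2 at 8-fold, 64 without doublets, 37 without repeated barcodes and 22 to 38 without 1 library. The squared correlation of the layers was 0.993 without the log transformation and 0.737 over genes with at least 0.1 counts per 10000 UMIs in one layer.

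For dilation, DESeq2 gave 393 and 364 genes toward the dilator muscle and the iris PE, and the other settings stayed within 1.5 times of 691 and 743, including 822 and 803 without the filter and 802 and 829 with a term for the series of library names. For constriction the counts were 44 and 14 without the filter, 9 and 5 with only the untreated and constricted libraries, 28 and 11 with the series term, and 0 to 15 and 0 to 10 with 1 library left out. Of the named genes, 34 of 60 kept their call with dilation in all settings, and 0 of 5 with constriction.

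Both layers of a library were paired in each fit, and with edgeR's adjusted p and a fitted 2-fold change as the rule the calls between layers were 934 and 1153 with the library term and 867 and 1029 with no replicate block. No source says that a number marks libraries of different treatments made together. Deviations of the layer difference from the mean of its condition correlated at 0.10, 0.09 and 0.13 between same-numbered untreated and constricted libraries, each library correlating best with its own number. For the dilated libraries this cannot be decided, since the deviations of 2 libraries from their mean are mirror images of each other. Dilated replicate 1 correlated at 0.12 with untreated replicate 1, and dilated replicate 2 at 0.05 with untreated replicate 2. Dilated replicate 2 correlated at 0.14 with untreated replicate 3, which has no dilated library of its number. With a replicate block in the interactions there were 767 and 799 genes for dilation and 34 and 14 for constriction. Depth limits the weak genes: the smallest summed layer had 1196394 UMIs.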
